A study of Mus musculus with 12 samples.

Results

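Solute carriers are the membrane proteins that move amino acids, sugars, metals, ions, vitamins and organic anions into and out of cells and organelles, and they are named in Slc families by sequence and by solute. Most work by exchange or by coupling to the gradient of an ion, without splitting ATP. The organic anion transporting polypeptides form the Slco family and carry prostaglandins, conjugated steroids and thyroid hormones. In cartilage, which has no blood vessels of its own, chondrocytes depend on such carriers for glucose, amino acids and the activated sugars from which aggrecan chains are made.

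The members described here were chosen by symbol and by detection. All genes whose symbol on the array begins with Slc, a family number, the letter a and a member number, or with Slco and a number, were taken, and those with a probe detected on at least 4 of the 12 arrays were kept. This gave 166 genes of 319 with such a symbol on the array, and of 14317 symbols with a kept probe. A probe was detected where the detection p, which compares its brightness with that of negative control beads, was under 0.05. The selection used the detection values of all arrays and no treatment label. Of the 166 genes, 110 had a representative probe detected on all 12 arrays and 160 were detected in every treatment. The genes just inside the rule, detected on exactly 4 arrays, were Slc16a6, Slc22a15, Slc24a2, Slc25a13, Slc39a10, Slc45a3 and Slc7a14. Those just outside it, at 3 arrays, were Slc22a12, Slc29a4, Slc36a1, Slc5a1 and Slc9a2. The remaining 153 genes below the limit included 123 that were detected on no array. The rule is by symbol, so it took 4 genes that only borrow a carrier's name, Slc9a3r1 and Slc9a3r2, which are scaffold proteins, Slc7a6os and Slc4a1ap.

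The arrays measured RNA of femoral head cartilage from 21-day-old TS-4/5∆cat mice, in which the exons of the catalytic domain are deleted in frame from both Adamts4 and Adamts5. Every group carried these deletions, so there was no wild-type control. Explants were left untreated or were cultured for 3 days with retinoic acid at 10 µM or IL-1α at 10 ng/ml, and each treatment had 4 arrays. Of these, 2 were in batch 1, from the line called Donut, and 2 in batch 2, from the line called Gertrude, so that batch and line cannot be told apart. The labels describe 4 hips in each well and 24 h in medium with serum before treatment, whereas the study's methods describe serum-free culture and 3 unpooled mice per treatment. No source says which arrays came from separate animals, so p-values measure only the spread between arrays, which may be technical.

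Array values are log2 intensities after background correction and quantile normalization, and a difference of 1 is a 2-fold change in brightness. A gene is represented by its brightest kept probe, and levels are not compared between genes, whose probes differ. A change was called where limma's Benjamini-Hochberg adjusted p, taken over all 18200 kept probes, was under 0.05. An exact permutation test of 4 arrays against 4, which ignores the batches, cannot give a p below 0.0286. Both treatments were compared with the same untreated arrays, so those comparisons are not independent, and their values are given side by side.

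The arrays carried the marker genes of cartilage. Of 11 chondrocyte markers on the array 9 were kept, with Col2a1 at 13.60 ± 0.39 (SD, n = 4) in untreated cartilage. Markers of blood and marrow were also present, with Hbb-b1 at 13.68 ± 0.32 (SD, n = 4), although the macrophage markers Ptprc and Cd163 and the red cell markers Epb4.2 and Ermap were detected on no array. The treatments gave most of their known responses. Cyp26a1, which degrades retinoic acid, was detected on all 4 retinoic acid arrays and on none of the others. Nos2, an IL-1 target, was detected on all 4 IL-1α arrays and on none of the others. Both were kept only through those arrays. Cyp26b1, Rarb and Dhrs3 rose with retinoic acid by 3.94, 2.92 and 1.75. With IL-1α Lcn2 rose by 1.04 (adjusted p = 0.0217), but Saa3, already at 13.20 untreated, was not called (0.79, adjusted p = 0.373). Between 131 and 137 members were detected on each array of batch 1 and between 151 and 160 on each of batch 2.

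Retinoic acid changed solute carriers in both directions, with more falls than rises. Against untreated cartilage 35 members were higher and 45 lower, which is 21.1% and 27.1% of the 166, while over all symbols 18.6% were higher and 18.1% lower. With IL-1α 36 members were higher and 22 lower, or 21.7% and 13.3%, beside 15.1% and 15.0% of all symbols. Between the treatments, 27 members were at a higher level under retinoic acid than under IL-1α and 52 at a lower one, or 16.3% and 31.3%, beside 16.1% and 16.4% of all symbols. The share of members lower with retinoic acid than with IL-1α was therefore the one that lay farthest from the share over all symbols. The median log2 difference of the members was −0.06 for retinoic acid, where that of all symbols was 0.01, and 0.08 for IL-1α, where that of all symbols was 0.01. Between the treatments it was −0.12 for the members and −0.03 for all symbols.

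Detection bears on these counts, because a dim gene can enter through the treatment in which it is brightest. Among the 110 members detected on every array, 21 were higher and 38 lower with retinoic acid than untreated, or 19.1% and 34.5%, beside 21.2% and 19.3% of the symbols detected on every array. With IL-1α 27 were higher and 16 lower, or 24.5% and 14.5%, beside 17.7% and 15.2%. Between the treatments 16 were higher with retinoic acid and 43 lower, or 14.5% and 39.1%, beside 16.6% and 18.8%. Quantile normalization was replaced by a common median for every array as an alternative, which moved the median of all probes to 0.14 for retinoic acid against untreated, where it was 0.02, and gave 33 members higher and 23 lower. The balance of rises and falls with retinoic acid therefore depended on the scaling. The shares of all symbols called under that scaling are not given, so these member counts cannot be set against them.

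**Figure D1:**
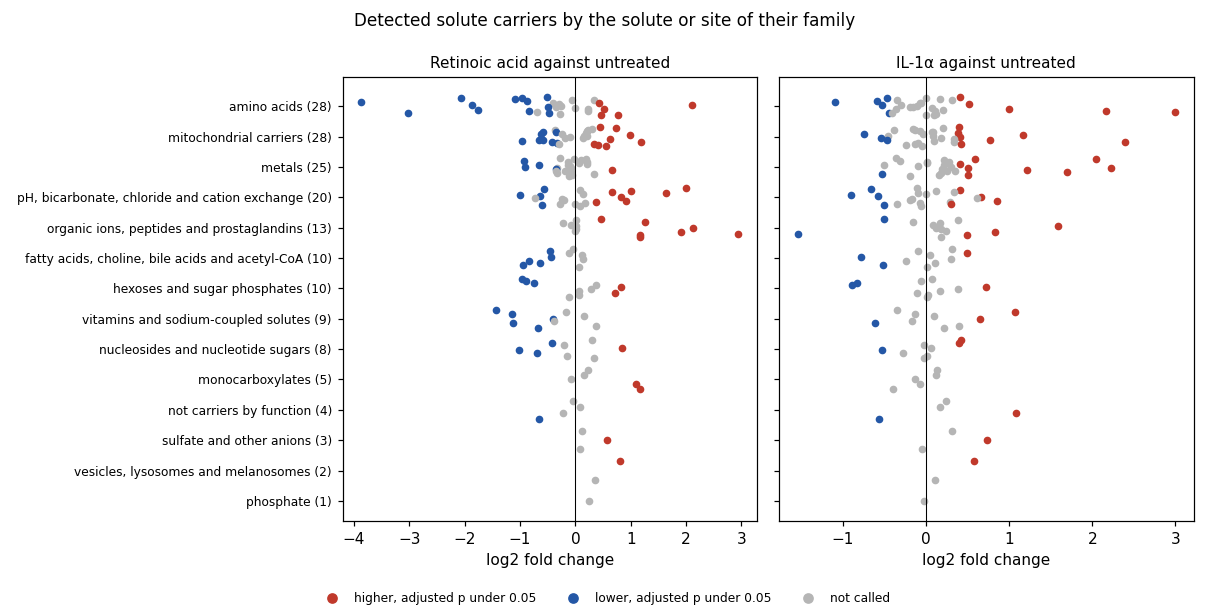
Log2 fold changes of the 166 detected solute carriers, 1 point per gene, by family group, for retinoic acid (left) and IL-1α (right) against the same untreated arrays. Red and blue points passed an adjusted p of 0.05. The point farthest to the left is Slc38a3, which was detected on none of the retinoic acid arrays, so that its value is not a measured size.

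Carriers of organic ions, peptides and prostaglandins were the group in which rises with retinoic acid were most frequent. Of 13 members 7 were higher with retinoic acid than untreated and none was lower, beside 18.6% and 18.1% of all symbols. With IL-1α 3 were higher and 2 lower, beside 15.1% and 15.0% of all symbols. Of the 7 only Slc15a2, a peptide carrier, was detected on all 12 arrays.

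All 4 detected members of the Slco family rose with retinoic acid. Slco2b1, an uptake carrier for steroid sulfates and many drugs, read 6.38 and 6.13 in batch 1, against 7.84 and 7.73 in batch 2 in untreated cartilage. With retinoic acid its arrays read 9.08 and 9.0 in batch 1, against 10.79 and 10.98 in batch 2, and with IL-1α 4.86 and 4.65, then 6.12 and 6.29. Every retinoic acid array lay above every other array, and IL-1α lay below untreated in each batch. Slco2b1 rose 7.69-fold with retinoic acid (log2 difference 2.94, SE 0.12, adjusted p = 2.18e-09, exact permutation p = 0.0286). It fell 2.90-fold with IL-1α (adjusted p = 1.81e-06), where it was detected on 2 of the 4 arrays, both of batch 2. In that comparison the treatments overlapped when the batches were pooled (exact permutation p = 0.0571), and the call was lost without a term for the batch (adjusted p = 0.18). The difference between the treatments was the largest of any member, at 4.48 on the log2 scale (SE 0.12, adjusted p = 8.05e-11).

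Slco2a1 is the prostaglandin transporter, which takes prostaglandin E2 and related lipids back into cells. Its untreated arrays read 5.52 and 5.20 in batch 1, against 5.48 and 5.74 in batch 2, and its retinoic acid arrays 7.57, 7.50, 7.07 and 7.41 in the same order. The rise was 3.75-fold (log2 difference 1.91, SE 0.20, adjusted p = 7.84e-06), without overlap. IL-1α gave 6.95 and 6.62 in batch 1 but 5.75 and 5.92 in batch 2, a rise of 0.83 on the log2 scale (adjusted p = 0.00758) that differed between the batches (1.43 and 0.23, adjusted p of the difference = 0.00662). The second probe of Slco2a1, detected on 6 arrays, rose with retinoic acid by 1.51 and gave −0.08 with IL-1α (adjusted p = 0.682). It was dim, with a mean of 5.445 over all arrays, where the lowest detected signals were 4.86 to 5.48. Its values are therefore weak evidence on either treatment.

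The remaining Slco genes gave smaller rises. Slco4a1, a thyroid hormone carrier, was 5.17 ± 0.46 untreated and 6.34 ± 0.32 with retinoic acid (SD, n = 4), a difference of 1.17 (SE 0.14, adjusted p = 2.08e-05), and 5.36 ± 0.37 with IL-1α, which was not called (adjusted p = 0.327). Slco3a1, which also takes up prostaglandins, rose by 1.16 with retinoic acid (SE 0.15, adjusted p = 5.14e-05) and by 0.49 with IL-1α (adjusted p = 0.026), but its second probe, detected on 11 arrays, gave 0.38 with retinoic acid and was not called (adjusted p = 0.114). The macrophage markers moved alongside. Of 9 kept, 5 were higher and none lower with retinoic acid, and 2 were higher and 4 lower with IL-1α. The summed intensity of the 12 on the array was 8590 to 9030 untreated, 10000 to 11100 with retinoic acid and 7230 to 10800 with IL-1α. Of 8 kept endothelial markers 1 was higher and 1 lower with retinoic acid, 4 were lower with IL-1α, and 5 were higher and 1 lower with retinoic acid than with IL-1α, with sums of 2570 to 3210 untreated, 2870 to 3330 with retinoic acid and 1190 to 1680 with IL-1α. The part of these cells in the results on the Slco genes was not tested. Here, as in all results below, fewer cells of a type and less RNA per cell cannot be told apart.

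The carnitine carriers of the Slc22 family responded gene by gene. Slc22a5, the main carnitine transporter, read 5.31 and 4.89 in batch 1, against 6.58 and 6.34 in batch 2 untreated, and 6.76 and 6.56, then 9.25 and 9.07, with retinoic acid. The rise of 2.13 on the log2 scale (SE 0.22, adjusted p = 8.6e-06) was seen within each batch and was larger in batch 2 (2.70) than in batch 1 (1.56; adjusted p of the difference = 0.0186). Pooled over batches the arrays overlapped (exact permutation p = 0.0571), and without a term for the batch the call was lost (adjusted p = 0.0632). Its second probe, detected on 7 arrays, rose by 1.51 with retinoic acid (adjusted p = 0.000137). IL-1α gave a difference of 0.12 (adjusted p = 0.718).

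Slc22a4, the ergothioneine transporter, moved with the other treatment. Untreated arrays read 5.17, 5.23, 5.81 and 5.79, retinoic acid arrays 5.18, 5.33, 5.86 and 5.68, and IL-1α arrays 6.44, 6.79, 7.71 and 7.41, in each case with batch 1 first. The IL-1α arrays did not overlap with any others, and the rise was 3.01-fold (log2 difference 1.59, SE 0.13, adjusted p = 1.74e-06). Retinoic acid gave 0.01 (adjusted p = 0.961). Slc22a21, another carnitine carrier, lies between these genes on mouse chromosome 11 in the order Slc22a5, Slc22a21, Slc22a4 among protein-coding genes in RefSeq's GRCm38.p6 table, and was called with neither treatment (−0.08 with retinoic acid and 0.09 with IL-1α). Slc22a15, an orphan member of the family, was detected on all 4 retinoic acid arrays and on no other array. It was at least 1.99-fold higher than untreated (means 6.12 and 4.86), where the bound sets the mean of the bright arrays against the lowest detected signal of the dim arrays. Slc22a15 was kept only through its retinoic acid arrays, so it had to differ, and it is 1 of the 7 rises of its group.

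The promoters of Slco2a1, Slc22a5, Slc22a4 and Slco4a1 are shown because these genes moved with different treatments, and because the neighbours Slc22a5 and Slc22a4 did not move with the same one. Each line gives the 250 bases before a RefSeq transcript start in GRCm38.p6, read 5′ to 3′ on the gene's strand, in lower case, with capitals for AGGTCA, the core motif bound by retinoid receptors and other nuclear receptors, or for its reverse complement. Slco2a1 lies on the plus strand at chr9:103008237-103008486, Slc22a5 on the minus strand at chr11:53891704-53891953, Slc22a4 on the minus strand at chr11:54028105-54028354, and the second start of Slco4a1 on the plus strand at chr2:180460728-180460977.
Slco2a1: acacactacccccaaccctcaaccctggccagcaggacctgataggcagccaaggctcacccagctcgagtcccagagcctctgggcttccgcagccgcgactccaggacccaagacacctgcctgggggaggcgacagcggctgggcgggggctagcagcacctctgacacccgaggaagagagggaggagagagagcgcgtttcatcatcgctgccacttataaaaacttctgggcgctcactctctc
Slc22a5: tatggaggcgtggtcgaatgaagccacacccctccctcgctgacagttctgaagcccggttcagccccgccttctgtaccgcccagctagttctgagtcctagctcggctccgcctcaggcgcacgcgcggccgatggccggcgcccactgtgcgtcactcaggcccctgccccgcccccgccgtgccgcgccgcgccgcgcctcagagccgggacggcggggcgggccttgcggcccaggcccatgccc
Slc22a4: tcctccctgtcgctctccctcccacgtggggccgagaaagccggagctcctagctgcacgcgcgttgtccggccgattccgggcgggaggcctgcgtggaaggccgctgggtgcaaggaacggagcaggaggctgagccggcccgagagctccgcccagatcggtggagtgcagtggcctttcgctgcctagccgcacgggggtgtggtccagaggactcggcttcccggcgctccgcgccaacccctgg
Slco4a1: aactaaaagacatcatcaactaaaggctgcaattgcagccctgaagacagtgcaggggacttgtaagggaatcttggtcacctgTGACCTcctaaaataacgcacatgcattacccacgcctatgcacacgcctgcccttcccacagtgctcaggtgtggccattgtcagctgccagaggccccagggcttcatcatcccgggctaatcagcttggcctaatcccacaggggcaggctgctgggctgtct
Of these lines only Slco4a1 holds the motif, whose first base lies at −166 from the start. Slco4a1 has another start in the table, whose window does not hold it, and the second was printed to show a match. The table held 184 windows of 250 bases before to 50 after a start for 131 members. The motif on either strand was found in 13.6% of them and in 16.3% of all 32851 windows, and in 15.4% of the 39 windows of members that rose with retinoic acid. Repeats of AGGTCA in one direction spaced by 1, 2 or 5 bases, which each contain 2 copies, were in none of the members' windows, and in 0.0396%, 0.00913% and 0.00913% of all windows. Of the NF-κB motifs searched on both strands, GGGANTTTC was in 1.63% of members' windows and 1.11% of all, and GGGANTTCC in 1.63% and 1.68%. Neither was in the 35 windows of members that rose with IL-1α. A match describes letters in this window only.

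**Figure D2:**
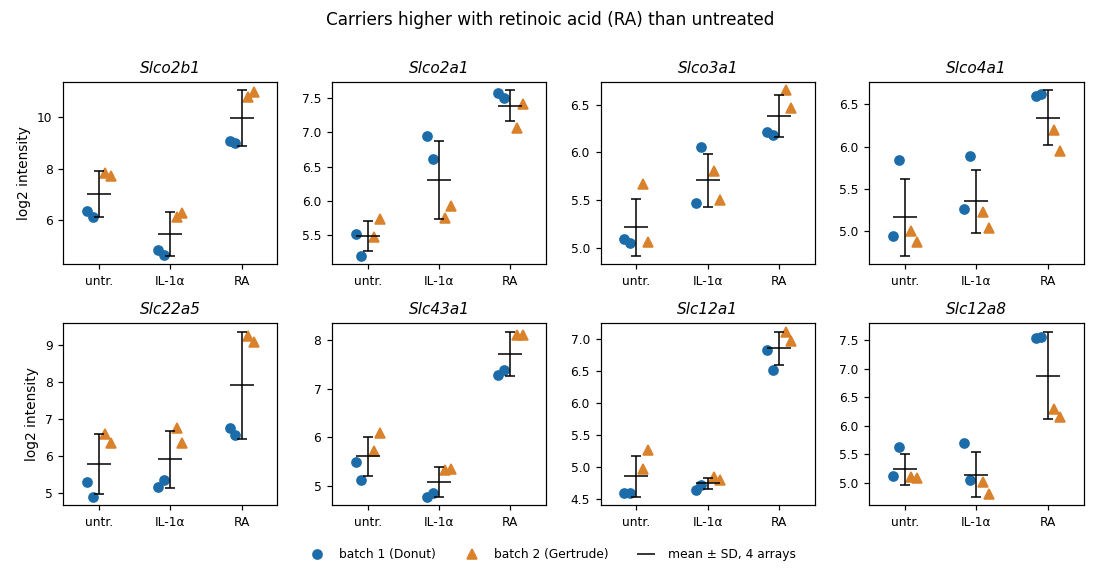
Log2 intensity on each of the 12 arrays for 8 carriers that rose with retinoic acid (RA), by treatment, with batch 1 as circles, batch 2 as triangles and the mean ± SD of 4 arrays as bars. Slco2b1 is below untreated with IL-1α in each batch, Slco2a1 is above it with IL-1α in batch 1, and the rise of Slc22a5 is larger in batch 2.

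Amino acid carriers fell more often than they rose with retinoic acid. Of 28 members 12 were lower and 5 higher than untreated (median −0.37), beside 18.1% and 18.6% of all symbols. The count of falls was 9 under median scaling and 7 without a term for the batch. With IL-1α 5 were higher and 5 lower (median −0.03), beside 15.1% and 15.0% of all symbols. Relative to IL-1α, 13 were lower with retinoic acid and 5 higher, beside 16.4% and 16.1% of all symbols. The falls with retinoic acid included carriers of glutamine (Slc38a3, Slc1a5, Slc38a2), of basic amino acids (Slc7a3), of glutamate (Slc1a3) and of glycine (Slc6a9).

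Slc38a3, a glutamine transporter of the sodium-coupled family, read 8.85 and 9.08 in batch 1, against 8.30 and 8.02 in batch 2 untreated, and 7.74 and 7.64, then 7.30 and 7.23, with IL-1α. With retinoic acid its arrays read 4.60, 4.74, 4.71 and 4.74, and the probe was detected on none of them. Slc38a3 was therefore at least 10.4-fold lower with retinoic acid than untreated (means 4.70 and 8.56, adjusted p = 2.38e-09), and at least 4.88-fold lower than with IL-1α (adjusted p = 4.18e-08). It fell 2.13-fold with IL-1α (log2 difference −1.09, SE 0.16, adjusted p = 0.000334). The 3 treatments did not overlap.

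Slc7a3, a carrier of arginine and lysine, was detected on every array. Untreated arrays read 8.89, 9.07, 9.60 and 9.26, IL-1α arrays 8.62, 8.49, 9.09 and 8.83, and retinoic acid arrays 5.90, 6.04, 6.56 and 6.20. The fall with retinoic acid was 8.15-fold (log2 difference −3.03, SE 0.11, adjusted p = 6.18e-10) and was nearly equal in the batches (−3.01 and −3.05). With IL-1α the fall was 0.45 on the log2 scale in size (−0.45, adjusted p = 0.00788), and those arrays overlapped with untreated ones (exact permutation p = 0.0857).

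Slc6a9, a glycine transporter, fell from 10.82 ± 0.09 to 9.06 ± 0.18 with retinoic acid (SD, n = 4; log2 difference −1.76, SE 0.12, adjusted p = 1.54e-07), and was 11.03 ± 0.09 with IL-1α (adjusted p = 0.218). Slc1a3, a glutamate transporter, fell from 7.28 ± 0.32 to 5.21 ± 0.24 (SD, n = 4; −2.07, SE 0.15, adjusted p = 2.4e-07), and was detected on 1 of the 4 retinoic acid arrays. With IL-1α it did not pass the test (−0.003, adjusted p = 0.99). Slc1a5, the main glutamine exchanger of many cells, fell by 1.10 on the log2 scale with retinoic acid (adjusted p = 9.54e-06) and gave 0.17 with IL-1α (adjusted p = 0.289). Slc43a3, a purine base carrier that its symbol puts in this group, read 7.30 and 7.59 in batch 1, against 10.30 and 10.08 in batch 2 untreated, and 5.67 and 5.76, then 8.44 and 7.92, with retinoic acid. The batches lay farther apart than the treatments, yet the fall was −1.73 in batch 1 and −2.01 in batch 2 (adjusted p = 1.54e-07 in the fit with the batch, 0.28 without it).

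The exception in size was Slc43a1, a carrier of leucine and other branched-chain amino acids. Its untreated arrays read 5.50 and 5.13 in batch 1, against 5.73 and 6.08 in batch 2, and its retinoic acid arrays 7.27 and 7.37, then 8.10 and 8.10. It rose 4.29-fold (log2 difference 2.10, SE 0.13, adjusted p = 5.3e-08), without overlap. Its second probe, detected on only 5 arrays, gave 1.73. It may have been kept only through its bright arrays, so it is not separate support. With IL-1α the brightest probe fell by 0.52 on the log2 scale (adjusted p = 0.00784). That probe was detected on 9 arrays. Its untreated arrays, at 5.13 to 6.08, already lay near the lowest detected signals of 4.86 to 5.48. The size of this fall is therefore poorly measured. The second probe gave −0.27 and was not called (adjusted p = 0.309), but being so dim it could hardly show a fall. Slc7a7 and Slc7a8, light chains of heterodimeric exchangers, rose with retinoic acid by 0.77 and 0.46, and their values with IL-1α did not pass the test.

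The fall of amino acid carriers accompanied a fall of the chondrocyte markers. All 9 kept markers were lower with retinoic acid (median −2.83) and 7 of 9 with IL-1α (median −0.99). The summed intensity of the 11 on the array was 64100 to 78200 untreated, 36000 to 49100 with IL-1α and 10400 to 16200 with retinoic acid, so that these ranges did not overlap. Of 9 kept neutrophil markers 5 were lower and none higher with retinoic acid and none was called with IL-1α. The 10 on the array had sums of 10300 to 17600 untreated, 6140 to 16000 with retinoic acid and 17500 to 18600 with IL-1α. Of 6 kept fibroblast markers 5 were lower with retinoic acid and 1, Pdgfra, was higher (0.95, adjusted p = 0.00335). With IL-1α 5 of the 6 were lower, Pdgfra among them, and none was higher. The part of these cells in the results on the carriers was not tested.

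**Figure D3:**
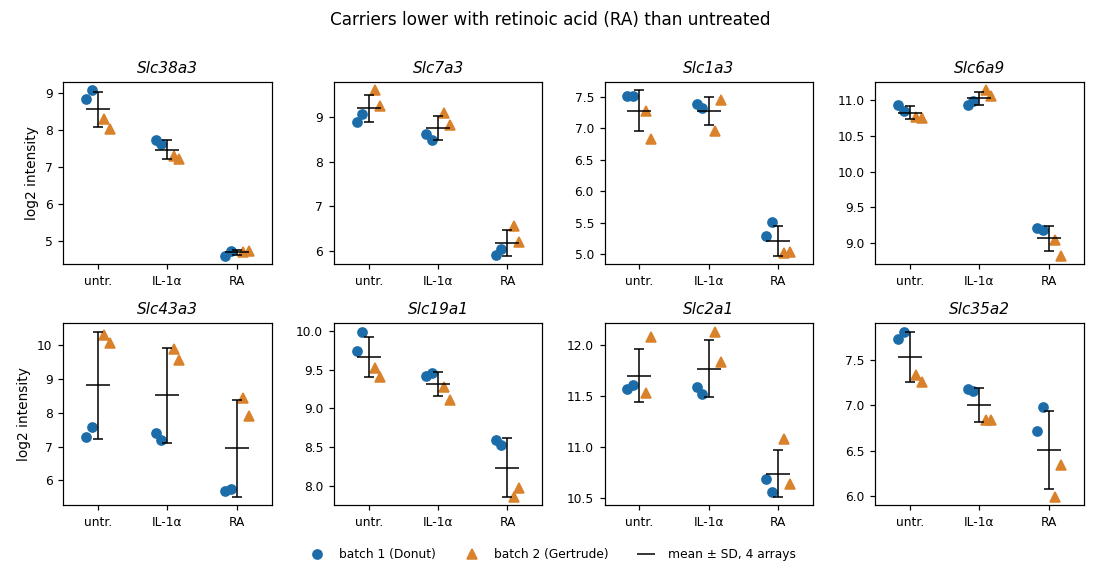
Log2 intensity on each of the 12 arrays for 8 carriers that fell with retinoic acid (RA), drawn as in the plot of rises. Slc38a3 was detected on no retinoic acid array, Slc7a3 and Slc6a9 stand clear of both other treatments, and the batches of Slc43a3 lie farther apart than its treatments.

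Slc7a2 and Slc7a11 gave the largest rises of amino acid carriers with IL-1α. Slc7a2, the inducible arginine transporter that supplies nitric oxide synthase, read 5.11 and 5.87 in batch 1, against 6.69 and 6.86 in batch 2 untreated, and 9.24 and 9.35, then 9.15 and 8.77, with IL-1α. The batches lay closer together with IL-1α than untreated. The rise was 7.94-fold over both (log2 difference 2.99, SE 0.27, adjusted p = 5.65e-06), with 3.80 in batch 1 and 2.18 in batch 2 (adjusted p of the difference = 0.00654). Its second probe, detected on 8 arrays, rose by 1.67. Retinoic acid arrays read 4.92, 5.08, 6.05 and 5.75, which gave −0.69 against untreated (adjusted p = 0.0686, and called without any of 3 arrays, namely the first untreated and first IL-1α arrays of batch 1 and the second IL-1α array of batch 2, at 0.0175 to 0.0331) and −3.68 against IL-1α (SE 0.27, adjusted p = 3.6e-07).

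Slc7a11, the cystine and glutamate exchanger that feeds glutathione synthesis, read 7.69, 7.40, 6.82 and 7.19 untreated and 9.18, 9.28, 9.63 and 9.66 with IL-1α. It rose 4.48-fold (log2 difference 2.16, SE 0.20, adjusted p = 6.03e-06), by 1.68 in batch 1 and 2.64 in batch 2 (adjusted p of the difference = 0.0265). Its other kept probes gave 2.42 and 0.41, but were detected on only 5 and 4 arrays. They may have been kept only through their bright arrays, so they are not separate support. With retinoic acid the brightest probe fell by 0.84 (adjusted p = 0.00516). The other probes gave −0.02 and 0.16 and were not called, but being so dim they could hardly show a fall. The fall with retinoic acid therefore rests on 1 probe. Slc3a2, the heavy chain with which Slc7a11 pairs, rose by 0.52 with IL-1α (adjusted p = 0.0186). That call was lost without either untreated array of batch 1 or the second IL-1α array of either batch (adjusted p = 0.0533 to 0.0836), and under median scaling (adjusted p = 0.155). Slc6a8, the creatine transporter, rose by 1.00 with IL-1α (adjusted p = 3.12e-05) and by 0.52 with retinoic acid (adjusted p = 0.00244).

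Some metal carriers rose with IL-1α and most did not pass the test. Of 25 members 8 were higher and 1 lower than untreated (median 0.22), beside 15.1% and 15.0% of all symbols. With retinoic acid 1 was higher and 4 lower (median −0.10), beside 18.6% and 18.1% of all symbols. Relative to IL-1α, 12 of the 25 were lower with retinoic acid, beside 16.4% of all symbols. The 8 were Slc11a2, Slc30a1, Slc31a1, Slc39a4, Slc39a8, Slc39a13, Slc39a14 and Slc41a2, which carry iron, zinc, copper or magnesium. The count fell from 8 to 5 without the second untreated array of batch 1, to 4 without the detection filter and to 3 without a term for the batch. The call of Slc39a13 (0.51, adjusted p = 0.0227) was lost without that array and without any untreated or IL-1α array of batch 2 (adjusted p = 0.0529 to 0.0864).

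Slc39a14, a zinc importer that also takes up iron, read 6.46 and 6.76 in batch 1, against 7.09 and 7.14 in batch 2 untreated. With IL-1α it read 8.93 and 9.01, then 9.32 and 9.10, and with retinoic acid 6.88, 6.71, 6.86 and 6.72. The rise with IL-1α was 4.69-fold (log2 difference 2.23, SE 0.14, adjusted p = 1.67e-07) and retinoic acid gave −0.07 (adjusted p = 0.724). All 3 kept probes rose with IL-1α, by 2.23, 1.89 and 1.40.

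Slc11a2, the proton-coupled importer of ferrous iron, read 8.18, 7.90, 6.51 and 7.09 untreated, 9.86, 9.94, 9.02 and 9.04 with IL-1α, and 8.30, 8.44, 6.74 and 6.92 with retinoic acid. The IL-1α arrays lay above all others. The rise was 4.13-fold (log2 difference 2.05, SE 0.16, adjusted p = 1.17e-06), and its other probes rose by 2.32 and 1.76. With retinoic acid the brightest probe gave 0.18 (adjusted p = 0.398), while another rose by 0.60 (adjusted p = 0.00289). Slc40a1, ferroportin, the iron exporter, fell by 0.52 with IL-1α (9.69 ± 0.15 to 9.17 ± 0.18, SD, n = 4; adjusted p = 0.0278). That call was lost without either untreated array of batch 1, and without the IL-1α arrays of batch 2 (each alone) or the second untreated array of that batch (adjusted p = 0.0633 to 0.0992), and under median scaling (adjusted p = 0.2). With retinoic acid Slc40a1 was 10.03 ± 0.50, which did not pass the test (adjusted p = 0.123).

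Slc39a8, a relative of Slc39a14 that imports zinc and manganese, was detected only in batch 2. In batch 1 it read 4.44 and 4.48 untreated, 4.92 and 4.94 with IL-1α and 4.52 and 4.55 with retinoic acid, all undetected. In batch 2 it read 6.03 and 6.00 untreated, 9.25 and 8.62 with IL-1α and 5.72 and 5.81 with retinoic acid. The IL-1α effect was 2.92 in batch 2, while batch 1 gave no measured size (adjusted p of the difference = 0.000314). The fit over both batches, to which batch 1 gave undetected values, passed the test (adjusted p = 0.0122), and the call was lost without the first or the second untreated array of batch 2 (adjusted p = 0.0507 and 0.0545) and without the detection filter (adjusted p = 0.117).

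Slc39a4, a zinc importer best known from the gut, rose 2.33-fold with IL-1α (log2 difference 1.22, SE 0.14, adjusted p = 3.92e-05) and by 0.66 with retinoic acid (adjusted p = 0.00239). Among the zinc carriers that fell with retinoic acid, Slc30a5 gave −0.93 and Slc39a11 −0.92 (adjusted p = 6.63e-05 and 0.000131). Slc11a1, which moves metals out of the phagosomes of macrophages, was called with neither treatment, although it was called lower with retinoic acid without the first retinoic acid array of batch 2 (adjusted p = 0.0359).

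Both mitoferrins, which bring iron into mitochondria, rose with IL-1α. Slc25a37, mitoferrin 1, read 8.80 and 8.67 in batch 1, against 7.38 and 6.89 in batch 2 untreated, 10.70 and 10.83, then 9.82 and 9.98, with IL-1α, and 9.60 and 9.53, then 8.60 and 8.75, with retinoic acid. It rose 5.25-fold with IL-1α (log2 difference 2.39, SE 0.17, adjusted p = 7.35e-07), without overlap, and by 1.18 with retinoic acid (adjusted p = 0.000155), where the pooled arrays overlapped (exact permutation p = 0.143) and the call was lost without a term for the batch (adjusted p = 0.125). Slc25a28, mitoferrin 2, rose by 0.41 with IL-1α (adjusted p = 0.0231) and was not called with retinoic acid. Red cell precursors are rich in mitoferrin 1. The 10 erythroid markers on the array, haemoglobins among them, had summed intensities of 21600 to 27800 untreated, 24800 to 33900 with IL-1α and 18900 to 31900 with retinoic acid. Of the 5 kept none was called against untreated. Between the treatments 1, Alas2, was lower with retinoic acid than with IL-1α (−1.065, adjusted p = 0.0227), and none was higher. Slc4a1, the anion exchanger of red cells, was also not called against untreated with either treatment (adjusted p = 0.127 with retinoic acid and 0.209 with IL-1α). Without either retinoic acid array of batch 2 it was called lower with retinoic acid (adjusted p = 0.0441 and 0.0417). Retinoic acid against IL-1α gave −1.35 on the log2 scale (adjusted p = 0.0103), with −2.45 in batch 1 and −0.25 in batch 2. That call was lost in batch 2 alone (adjusted p = 0.322) and without the detection filter (adjusted p = 0.112).

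**Figure D4:**
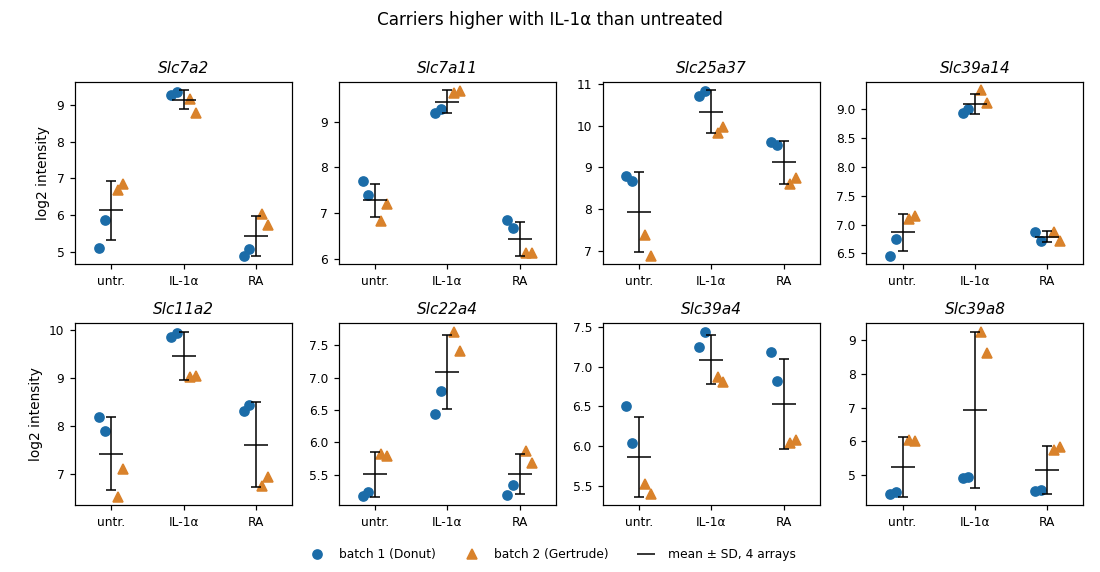
Log2 intensity on each of the 12 arrays for 8 carriers that rose with IL-1α, drawn as in the plots for retinoic acid (RA). IL-1α stands above both other treatments for Slc7a2, Slc7a11, Slc39a14, Slc11a2 and Slc22a4, whereas Slc39a8 reached 9.25 and 8.62 in batch 2 and was undetected in batch 1.

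The mitochondrial carriers were divided. Of 28 in the Slc25 family, both mitoferrins included, 8 were higher and 8 lower with retinoic acid, and 7 were higher and 3 lower with IL-1α. Over all symbols the shares were 18.6% higher and 18.1% lower with retinoic acid, and 15.1% and 15.0% with IL-1α. The calcium-regulated ATP-magnesium and phosphate carriers moved in opposite directions, with Slc25a25 higher with both treatments (0.98 and 1.17, adjusted p = 0.00424 and 0.00196) and Slc25a24 lower with both (−0.62 and −0.75, adjusted p = 0.00288 and 0.00127), retinoic acid being given first. The rise of Slc25a25 with IL-1α was 1.78 in batch 1 and 0.56 in batch 2 (adjusted p of the difference = 0.0211). Slc25a33, a pyrimidine nucleotide carrier, was 8.28 ± 0.33 untreated, 9.05 ± 0.46 with IL-1α and 7.62 ± 0.53 with retinoic acid (SD, n = 4), higher with IL-1α (adjusted p = 0.000295) and lower with retinoic acid (adjusted p = 0.00056). Slc25a38, which carries glycine for haem synthesis, fell by 0.42 with retinoic acid (adjusted p = 0.0163), and the call was lost under median scaling (adjusted p = 0.362) and without either retinoic acid array or the second untreated array of batch 2 (adjusted p = 0.0574 to 0.0723). IL-1α gave 0.34 (adjusted p = 0.0535), which was called without the first untreated or the first retinoic acid array of batch 2 (adjusted p = 0.0404 and 0.0499).

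Glucose carriers responded differently to the treatments. Slc2a1, GLUT1, read 11.57 and 11.61 in batch 1, against 11.53 and 12.09 in batch 2 untreated, and 10.69 and 10.56, then 11.07 and 10.63, with retinoic acid. Every retinoic acid array lay below every untreated one, and the fall was 1.95-fold (log2 difference −0.96, SE 0.15, adjusted p = 0.000281). IL-1α gave 0.07 (adjusted p = 0.77). Slc2a3, GLUT3, fell with IL-1α from 8.89 ± 0.14 to 8.0 ± 0.25 (SD, n = 4; −0.89, SE 0.17, adjusted p = 0.00189) and gave 0.37 with retinoic acid (adjusted p = 0.115). Slc2a10, GLUT10, fell by 0.90 with retinoic acid (adjusted p = 0.00134). Slc2a13, a myo-inositol carrier, fell by 0.75 with retinoic acid and by 0.83 with IL-1α (adjusted p = 0.00659 and 0.00516). Slc2a6 rose by 0.82 and 0.72 (adjusted p = 0.00518 and 0.0145).

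Nucleotide sugar carriers supply the Golgi with the building blocks of glycosaminoglycan chains. Slc35a2, which carries UDP-galactose, fell with retinoic acid from 7.53 ± 0.28 to 6.50 ± 0.43 (SD, n = 4; −1.03, SE 0.13, adjusted p = 3.18e-05) and with IL-1α by 0.53 on the log2 scale (adjusted p = 0.00693), a call that was lost under median scaling (adjusted p = 0.0539) and in batch 2 alone (adjusted p = 0.0916). Slc35a3, which carries UDP-N-acetylglucosamine, fell by 0.69 with retinoic acid (adjusted p = 0.000999) and gave −0.28 with IL-1α (adjusted p = 0.124, and 0.0423 without the first untreated array of batch 2). Its other kept probes, both dimmer, gave −0.05 and −0.23 with retinoic acid and were not called (adjusted p = 0.871 and 0.28). The families Slc35b to Slc35f are outside the symbol rule. Of their 11 kept genes 1 was higher and 2 lower with retinoic acid, and 3 were higher and 1 lower with IL-1α. Among nucleoside carriers, Slc29a1 fell by 0.43 with retinoic acid and rose by 0.40 with IL-1α (adjusted p = 0.00711 and 0.0137). Its second probe gave 0.07 with retinoic acid, which was not called, and rose by 1.23 with IL-1α (adjusted p = 0.87 and 0.00415). Slc29a3, of lysosomes, rose by 0.85 with retinoic acid (adjusted p = 0.000156).

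Vitamin carriers fell with retinoic acid in 5 of 9 cases and rose in none, beside 18.1% and 18.6% of all symbols. With IL-1α 2 were higher and 1 lower, beside 15.1% and 15.0% of all symbols. Slc19a1, the reduced folate carrier, read 9.74, 9.99, 9.52 and 9.40 untreated and 8.59, 8.53, 7.86 and 7.97 with retinoic acid, a fall of 2.69-fold (log2 difference −1.43, SE 0.12, adjusted p = 1.42e-06) without overlap. IL-1α gave −0.35 (adjusted p = 0.0505). The thiamine carriers differed from each other. Slc19a3 fell by 1.15 with retinoic acid (adjusted p = 0.000205) and was not called with IL-1α (adjusted p = 0.619), and Slc19a2 rose by 1.07 with IL-1α (adjusted p = 6.61e-05) and was not called with retinoic acid. Slc46a3, a lysosomal carrier, fell with both treatments, by 1.12 with retinoic acid and 0.62 with IL-1α (adjusted p = 6.61e-05 and 0.00782), and the call with IL-1α was lost under median scaling (adjusted p = 0.0602). Slc5a6, which carries biotin and pantothenate, fell by 0.67 with retinoic acid (adjusted p = 0.00281). Slc23a2, a vitamin C carrier, was called with neither treatment. Under median scaling the count of falls with retinoic acid was 3 in place of 5.

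Carriers of salt and acid included genes better known from the kidney. Slc12a1, the sodium, potassium and chloride cotransporter of the loop of Henle, read 4.60, 4.60, 4.97 and 5.26 untreated and 6.83, 6.51, 7.10 and 6.97 with retinoic acid, and was detected on 1 untreated array and all 4 retinoic acid arrays, without which it would not have been kept. It rose by 1.99 on the log2 scale (SE 0.13, adjusted p = 1.11e-07), and was at least 3.03-fold higher than with IL-1α, where it was detected on no array (means 6.85 and 4.75, adjusted p = 6.62e-08). A second probe, detected on only 4 arrays, gave 2.02. It may have been kept only through its bright arrays, so it is not separate support. Another, detected on 11 arrays, gave 0.16 (adjusted p = 0.391). Slc12a8, of the same family, rose by 1.64 with retinoic acid (SE 0.22, adjusted p = 7.08e-05), while its dimmer probe gave 0.09 (adjusted p = 0.711). Slc12a2, the widely expressed relative of Slc12a1, fell with IL-1α by 0.66 and with retinoic acid by 0.58 (adjusted p = 0.00604 and 0.0102). Both calls were lost under median scaling (adjusted p = 0.0533 and 0.171), and that with retinoic acid also without the second retinoic acid array of batch 2 (adjusted p = 0.0519).

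In the rest of this group, Slc4a7, a sodium bicarbonate cotransporter, rose with both treatments (0.92 with retinoic acid and 0.85 with IL-1α, adjusted p = 8.55e-05 and 0.000282). Slc24a2, a calcium exchanger, was detected on all 4 untreated arrays and on no treated one. It was at least 1.33-fold lower with retinoic acid and at least 1.28-fold lower with IL-1α (means 5.61 untreated, 4.61 with retinoic acid and 4.71 with IL-1α). It was kept only through its untreated arrays, so it had to differ. In all, 7 of 20 were higher and 4 lower with retinoic acid, beside 18.6% and 18.1% of all symbols. With IL-1α 4 were higher and 4 lower, beside 15.1% and 15.0% of all symbols.

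Smaller groups moved in part, and their counts are to be read beside the shares of all symbols given above. Of 10 carriers of fatty acids, choline and bile acids 5 were lower and none higher with retinoic acid, among them the choline carriers Slc44a1 (−0.63) and Slc44a2 (−0.95), and 1 was higher and 2 lower with IL-1α. Slc27a3, an acyl-CoA synthetase of the fatty acid transport family, fell with IL-1α by 0.78 (adjusted p = 0.00078) and with retinoic acid by 0.43 (adjusted p = 0.0211). Of 5 monocarboxylate carriers, Slc16a9 and Slc16a6 rose with retinoic acid by 1.16 and 1.09 (adjusted p = 0.000654 and 0.00219) and none was called with IL-1α, while Slc16a3, which exports lactate, was called with neither. Slc16a6 was detected on 1 untreated, no IL-1α and 3 retinoic acid arrays, and would not have been kept without the latter. Its rise with retinoic acid was 0.53 in batch 1 and 1.65 in batch 2 (adjusted p of the difference = 0.0171). Of 3 carriers of sulfate and other anions 1, Slc26a6, was higher with both treatments (0.57 with retinoic acid and 0.73 with IL-1α), and of 2 vesicle and lysosome carriers 1, Slc17a5, which exports sialic acid, was higher with both (0.81 and 0.58). Slc20a1, a phosphate carrier, was the only gene of its family kept and was called with neither treatment by its brightest probe. With retinoic acid a dim probe rose by 1.04 (adjusted p = 0.000714), and the third gave 0.07 and was not called (adjusted p = 0.708). The gene was called higher with retinoic acid in batch 2 alone (0.67, adjusted p = 0.00784). It was also called with the mean of all kept probes (0.455, adjusted p = 0.00456). Among the 4 genes that are not carriers, the scaffold Slc9a3r1 rose by 1.09 with IL-1α (adjusted p = 0.000126), and the call was lost without a term for the batch (adjusted p = 0.129), while Slc9a3r2 fell with both treatments.

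Other genes of membrane transport, from lists chosen by symbol, moved as follows. Over all symbols the shares were 18.6% higher and 18.1% lower with retinoic acid, and 15.1% and 15.0% with IL-1α. Of 10 kept sodium-potassium ATPase genes 2 were higher and 6 lower with retinoic acid, and 2 were higher and 4 lower with IL-1α. The beta subunit Atp1b1 rose by 2.01 with IL-1α, while the regulatory subunit Fxyd3 was 11.70 untreated, 9.98 with IL-1α and 6.83 with retinoic acid on average. Of 28 kept ABC transporters 7 were higher and 3 lower with retinoic acid and 5 were higher and 2 lower with IL-1α. Of 10 kept carrier partners 4 were higher and 1 lower with retinoic acid. Stra6, the cell surface receptor for retinol-binding protein, was detected only on the 4 retinoic acid arrays, at least 2.15-fold above untreated. Stra6 was kept only through those arrays, so it had to differ, and it is 1 of the 4. Of 5 aquaporins 2 were higher with retinoic acid, among them Aqp1 by 1.31, and 2 were higher and 1 lower with IL-1α.

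Most members differed between the batches. Comparing batch 2 with batch 1 over all treatments, 53 members were higher and 78 lower, 78.9% of the 166 beside 76.1% of all symbols. Slc20a1 read 5.11 to 5.55 on the arrays of batch 1 and 8.34 to 9.04 on all arrays of batch 2. Across the members, arrays of the same treatment and batch correlated at 0.9852 to 0.9939 and arrays that shared the treatment but not the batch at 0.8277 to 0.8721.

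The batches share no arrays, and each gave its own estimate of every effect. Across the 166 members the log2 differences of retinoic acid against untreated in batch 1 and batch 2 correlated at r = 0.873, those of IL-1α at 0.759 and those between the treatments at 0.855, beside 0.844, 0.728 and 0.753 across all symbols. These are correlations across genes, which are not independent, and a probe's composition is common to both batches. The sign was the same in both batches for 133 of 166 members with retinoic acid (80.1%), 118 with IL-1α (71.1%) and 130 between the treatments (78.3%), beside 76.5%, 70.8% and 67.5% of all symbols. The members that passed 2-fold in both batches, which are selected for large values, numbered 15, 8 and 22 in that order, and each had the same sign in both. By the test for a difference between batches, 7 members differed for retinoic acid (4.22%, beside 2.56% of all symbols), 10 for IL-1α (6.02%, beside 5.03%) and 17 between the treatments (10.2%, beside 9.96%).

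**Figure D5:**
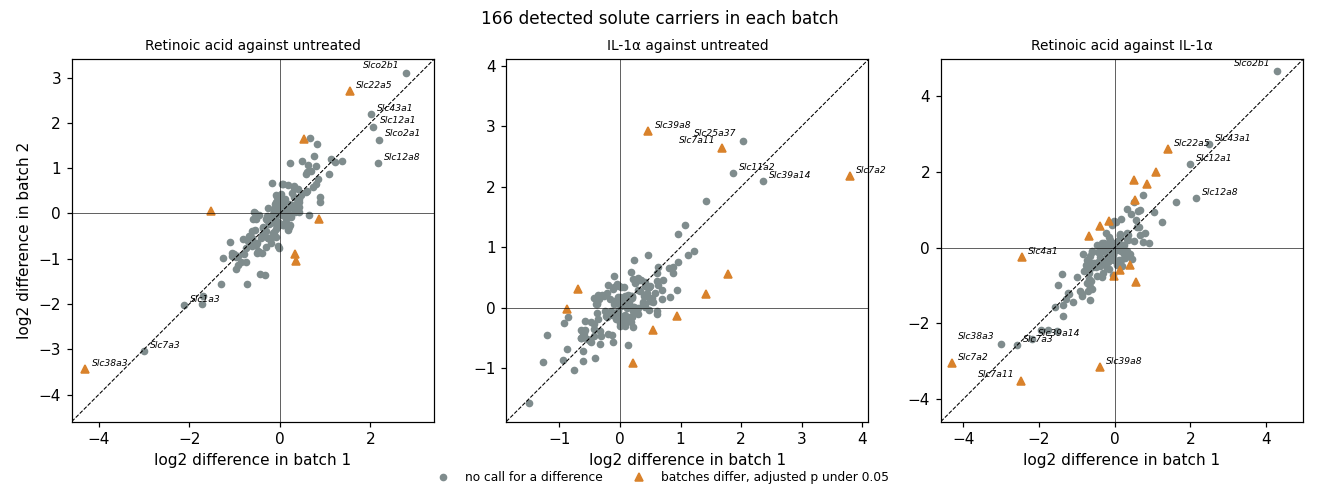
Log2 difference in batch 2 against that in batch 1 for the 166 detected solute carriers, in 3 comparisons, with the line of equality dashed. Triangles mark genes whose effect differed between the batches at an adjusted p under 0.05, such as Slc39a8, with 2.92 in batch 2 for IL-1α against untreated and no detected signal in batch 1.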

How the data were processed

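RNA of 12 cultures was measured on Illumina mouse bead arrays, 4 per treatment. The authors deposited linear probe intensities, neither background-corrected nor normalized, and a detection score that rises with intensity, of which 1 minus the score was taken as the detection p. The summarising software is not given in the sources used here. In R 4.3.3 with limma 3.58.1, neqc corrected background from the detection p, applied quantile normalization and an offset of 16, and took log2. Probes with detection p under 0.05 on at least 4 of 12 arrays were kept, 18200 of 46632. The study's methods name neqc, the removal of undetected probes and a factor for batch and biological replicate. The fit (lmFit, eBayes) took treatment plus 1 factor that joins batch and replicate (4 levels), with Benjamini-Hochberg adjustment over all kept probes. A further fit tested treatment by batch. Exact permutation tests were two-sided.

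A probe undetected on every array of a group gives a bound, from the bright group's mean against, per dim array, whichever is higher of its own value and the lowest detected signal. Summed intensities of markers are linear, less the offset, and take in every listed marker on the array, kept or not. Named genes were the 10 largest rises and 10 largest falls of each treatment against untreated and the 5 largest in each direction between treatments, alike in sign in all 4 pairs of batch and replicate, plus carriers of cartilage, of the treatments and of red cells. Others are examples of their group. The members and lists were chosen with earlier results of these data known, and Slc4a1ap was moved to the genes that are not carriers after the symbols were seen. Of 166 symbols 165 were current in RefSeq's GRCm38.p6 table and 1 was a synonym. Numbers of replicates did not pair arrays by deviation (r of −0.108 to 0.391 between treatments in a batch), and the block follows the study's methods. The number of arrays limits precision. The scripts were tested on simulated data. Some results are not reported here.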

Additional observations from a re-analysis of the deposited data

Results flagged for a closer look

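Among 141 groups of 4 arrays of the named genes, 5 held an array that stood apart from the other arrays of its treatment, and about 1 in 20 such groups does so by chance. These were the second untreated array of batch 1 for Slc12a8 (5.63 on the log2 scale) and for Slco4a1 (5.84), the first untreated array of batch 2 for Slc12a2 (9.28), the second untreated array of batch 2 for Slc2a1 (12.09) and the first IL-1α array of batch 2 for Slc40a1 (9.43).

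Each comparison was examined only for the genes named among its own largest rises and falls. Of these 50 pairs of gene and comparison, 9 had an effect that differed between the batches by limma's adjusted p. Other pairs were not counted, such as Slco2a1 with IL-1α, whose effect also differed between the batches. Values are batch 2 minus batch 1, in log2 units. With retinoic acid relative to untreated they were Slc22a5 (1.14) and Slc38a3 (0.86), where the retinoic acid arrays were undetected, so that the latter follows the untreated levels. For IL-1α against untreated they were Slc39a8 (2.45, undetected in batch 1), Slc7a2 (−1.62), Slc25a25 (−1.21) and Slc7a11 (0.96). For retinoic acid against IL-1α they were Slc7a2 (1.24), Slc22a5 (1.20) and Slc7a11 (−1.05). The batches hold different lines, and batch and line cannot be told apart.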

How the results depend on the processing

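No named gene that passed the test in the report or under an alternative had the opposite sign there, whereas values that passed neither were not followed for sign. Without the replicate block, with treatment and batch as terms, 35 members were higher and 48 lower with retinoic acid and 38 and 26 with IL-1α, and none of 103 results of named genes, of which 75 had passed the test, changed its side of the threshold. Without the batch as well, 27 of those 75 calls were lost, and members higher and lower were 17 and 20 with retinoic acid, 10 and 5 with IL-1α and 16 and 23 between the treatments. Under median scaling 23 members were lower with retinoic acid, 22 higher and 10 lower with IL-1α, and 34 lower with retinoic acid than IL-1α. With detection required on all 12 arrays, 21 were higher with retinoic acid. In batch 2 alone, 19 were higher and 13 lower with IL-1α. With an offset of 50, 11 members differed between batches for retinoic acid. The causes were not tested, and the shares of all symbols under these alternatives are not given.

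Leaving out 1 array at a time gave 27 to 35 members higher and 36 to 47 lower with retinoic acid, 24 to 36 higher and 18 to 27 lower with IL-1α, and 22 to 28 higher and 46 to 53 lower between the treatments. The counts that differed between batches were the least stable, 2 to 10 for retinoic acid, 1 to 14 for IL-1α and 4 to 28 between the treatments, and every array moved at least 1 of them by more than 1.5 times. The highest, 28, came without either untreated array of batch 2. Dim probes limit the rest, since only 110 of 166 members were detected on every array.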
